A study of Mus musculus with 8 samples.

Results

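The 10 genes described here were 4 testis isoenzymes of energy metabolism, *Slc25a31*, *Ldhc*, *Pgk2* and *Pdha2*, and their 6 somatic partners, *Slc25a4* and *Slc25a5*, *Ldha* and *Ldhb*, *Pgk1*, and *Pdha1*. They were chosen by gene symbol, and all 10 were found among the 40840 genes counted in each of 8 RNAseq libraries. The libraries came from whole testes of C57BL/6J mice aged 12 days (P12), 4 wild type and 4 *Tra2b-cPEko*, named A to D within each genotype. *Tra2b* encodes a splicing regulator that limits its own expression through a poison exon, an exon whose inclusion stops the mRNA from making full-length protein. The wild type mice carried 1 floxed and 1 normal allele of this exon (Tra2bPE fl/+) and no Cre. The *Tra2b-cPEko* mice carried 1 floxed and 1 already deleted allele (Tra2bPE fl/-) and Vasa-Cre, a Cre driven by a germ cell promoter, so the exon was removed in germ cells while the somatic cells of the same testes kept 1 floxed copy. The cell type label of every library was mixed, since whole testes were sequenced, so a lower level of a gene may mean fewer cells of a type or less of its RNA per cell, and these cannot be told apart.

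Meiotic germ cells switch to a set of energy enzymes that other tissues hardly use. Several of the ordinary forms are encoded on the X chromosome, which is silenced in spermatocytes during pachytene, and autosomal copies made by retrotransposition or duplication take over. Among the genes considered here, *Slc25a5*, *Pgk1* and *Pdha1* are X-linked. *Slc25a31* encodes the germ cell ADP/ATP carrier, which exchanges ADP for ATP across the inner mitochondrial membrane, and *Slc25a4* and *Slc25a5* encode the carriers of muscle and heart and of dividing cells. *Ldhc* encodes the lactate dehydrogenase subunit of spermatocytes and sperm, and *Ldha* and *Ldhb* the subunits that form the enzyme elsewhere. *Pgk2* and *Pgk1* encode phosphoglycerate kinase, an ATP-producing step of glycolysis, and *Pdha2* and *Pdha1* encode the E1 alpha subunit of pyruvate dehydrogenase, which feeds pyruvate into the citric acid cycle.

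The sequences around the start sites of the 4 testis isoenzymes are shown because these genes are switched on at different times in the germ line and their upstream sequences differ in kind. Each runs 5′ to 3′ from 220 bases before to 30 bases after the start of the canonical GENCODE transcript, in GRCm39. Capitals mark matches on either strand to TCCCGCC (core letters of E2F6 sites), TGACGT (core letters of cyclic AMP response elements), GGGCGG (the GC box) or TATAAA (the TATA box), and overlapping matches run together.
*Slc25a31*: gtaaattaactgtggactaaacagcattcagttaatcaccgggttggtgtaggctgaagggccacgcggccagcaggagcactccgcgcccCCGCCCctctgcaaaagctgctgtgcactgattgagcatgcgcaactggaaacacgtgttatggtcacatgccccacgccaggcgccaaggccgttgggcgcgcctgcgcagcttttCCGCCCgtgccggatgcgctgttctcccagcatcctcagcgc
*Ldhc*: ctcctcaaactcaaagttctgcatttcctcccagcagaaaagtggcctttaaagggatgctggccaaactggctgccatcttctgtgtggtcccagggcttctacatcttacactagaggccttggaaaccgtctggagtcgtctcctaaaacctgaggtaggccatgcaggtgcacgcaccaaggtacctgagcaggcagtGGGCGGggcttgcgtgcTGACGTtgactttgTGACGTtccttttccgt
*Pgk2*: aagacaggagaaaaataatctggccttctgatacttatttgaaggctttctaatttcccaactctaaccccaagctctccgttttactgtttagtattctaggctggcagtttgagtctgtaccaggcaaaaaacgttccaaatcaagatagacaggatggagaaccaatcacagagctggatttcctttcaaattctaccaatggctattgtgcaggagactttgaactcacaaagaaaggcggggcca
*Pdha2*: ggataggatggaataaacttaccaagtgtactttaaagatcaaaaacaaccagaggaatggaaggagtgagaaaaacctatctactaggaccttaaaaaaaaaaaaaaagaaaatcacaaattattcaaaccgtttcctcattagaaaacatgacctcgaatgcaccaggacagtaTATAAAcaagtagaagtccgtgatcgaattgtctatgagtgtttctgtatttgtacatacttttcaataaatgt
They lie at chr3:40663065-40663314 on the + strand (*Slc25a31*), chr7:46510407-46510656 on the + strand (*Ldhc*), chr17:40519502-40519751 on the - strand (*Pgk2*) and chr3:140918087-140918336 on the - strand (*Pdha2*). The *Slc25a31* window held 2 matches to GGGCGG, a motif found in 40.0% of the windows of 21770 protein-coding genes. The *Ldhc* window held 1 match to GGGCGG and 2 to TGACGT, a motif found in 7.63% of all windows. The *Pdha2* window held 1 match to TATAAA (11.3% of all windows), the *Pgk2* window held none of the 4 motifs, and TCCCGCC (11.9% of all windows) was in none of the 4. The GC content was 61.2% for *Slc25a31* and 54.0% for *Ldhc*, beside a median of 54.4% over all windows. It was lower for *Pgk2* (42.0%) and *Pdha2* (32.8%), whose canonical transcripts have 1 exon, than for their X-linked partners *Pgk1* (64.8%) and *Pdha1* (62.8%). A match is a description of the letters and not of binding.

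Between 36757386 and 59101569 reads per library were counted on genes. The targeted gene *Tra2b* lay from 156 to 176 counts per 1000000 counted reads (CPM) in the wild type and from 190.3 to 209 CPM in the *Tra2b-cPEko* mice, a gene level count that does not show the exon itself, and its paralogue *Tra2a* lay from 111 to 144 CPM against 65.1 to 73.2 CPM. Wild type mice A and B stood apart in genes of meiosis and were the 2 highest mice for 13 of 20 markers of leptotene and zygotene spermatocytes and 8 of 14 tested markers of pachytene spermatocytes, and also for 5 of 5 tested red blood cell markers, where this was so for 12.7% of all tested genes. The 16 marker genes of pachytene spermatocytes summed to 304 to 579 CPM in wild type and to 335 to 425 CPM in *Tra2b-cPEko* mice, and the mean log2 CPM of the 14 tested ones was 3.12 and 3.13 in wild type mice A and B and between 2.05 and 2.58 in the other 6 mice. Of the 10 spermatid markers, *Prm2* and *Tnp2* had no read in any library. Values without wild type mice A and B, a setting chosen after the data were seen, are given beside the results that rest on them.

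Ordered by level, CPM per kb of exon, *Ldhb* was the most abundant of the 10 genes and *Pgk2* the least. The means over all 8 mice were 138 for *Ldhb*, 116 for *Slc25a5*, 55.4 for *Slc25a31*, 52.3 for *Slc25a4*, 32.5 for *Pgk1*, 14.6 for *Ldha*, 10.4 for *Pdha1*, 6.06 for *Pdha2*, 4.60 for *Ldhc* and 0.116 for *Pgk2*. The ranges of neighbours in this order did not overlap over the 8 mice, except for *Slc25a31* with *Slc25a4* and *Pdha2* with *Ldhc*, where the first gene of each pair was higher in 6 of 8 mice. *Slc25a31* was thus at the level of a somatic carrier at P12, while *Ldhc* and *Pgk2* were minor forms beside their partners. With the length of the canonical transcript in place of all exons, *Slc25a4* (80.2) lay above *Slc25a31* (55.4) and *Ldha* (43.4) above *Pgk1* (40.0), and *Ldhc* (6.93) above *Pdha2* (6.69).

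**Figure D1:**
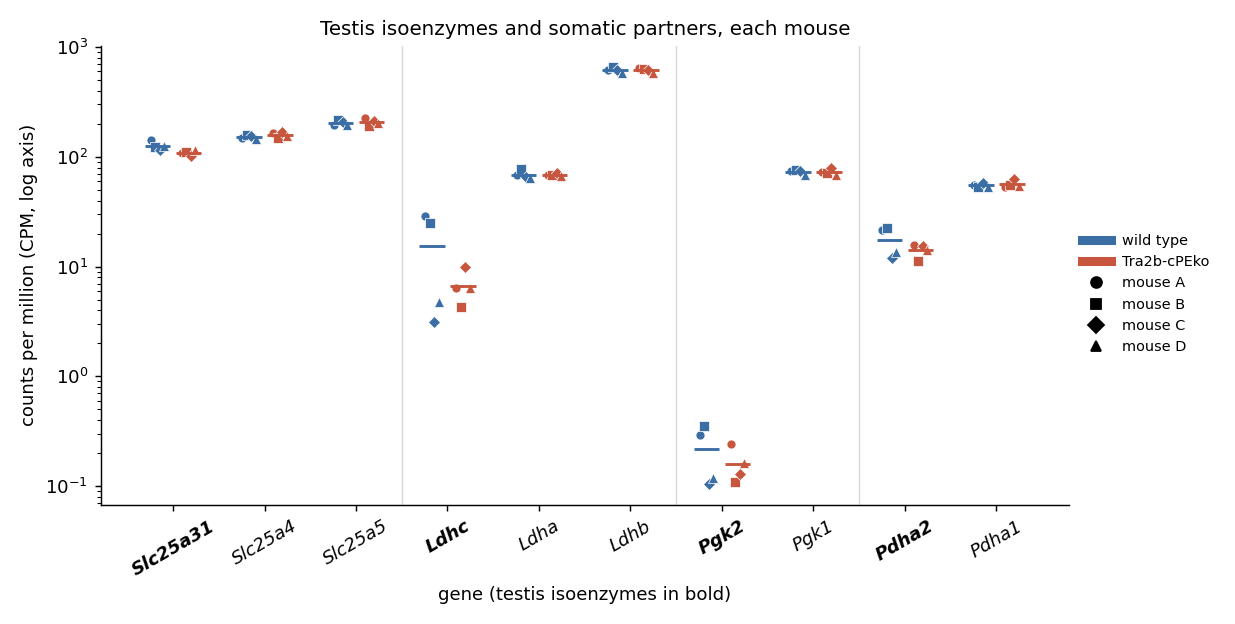
Level of each gene in each mouse in CPM, on a log axis, with wild type in blue, *Tra2b-cPEko* in red and a marker shape for each mouse letter. Horizontal lines are genotype means (n = 4). The points of *Slc25a31* do not overlap between genotypes, and those of *Ldhc* and *Pdha2* in wild type mice A and B lie above all other mice.

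None of the 10 genes was called different between the genotypes in the main test. This was the quasi-likelihood test of edgeR, with p adjusted by Benjamini-Hochberg over all 19104 genes that passed the count filter, at an adjusted p under 0.05. It was made for 9 of the 10 genes, since *Pgk2* had too few reads, and 0 of the 9 were called, where 0.157% of all tested genes were. At an unadjusted p under 0.05 the count was 1 of 9 (*Slc25a31*), where 15.3% of all tested genes had one. DESeq2 with its default settings called *Slc25a31* and no other of the 10 genes, where it called 2.79% of the genes it tested. The paper on these mice listed *Slc25a31* among its lower genes, from DESeq2 on the same libraries, so its call is not separate evidence. Its primers for a separate PCR assay of RNA (RT-qPCR) include *Slc25a31*, and values of that assay are not given here. The 3 tested testis isoenzymes all had a log2 fold change below 0 (median -0.30), and the 6 somatic partners lay between -0.00 and 0.08 (median 0.02), beside a median of -0.00 over all tested genes.

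*Slc25a31*, on chromosome 3 from 40663285 to 40680527, was at 141, 124, 116 and 125 CPM in wild type mice A to D and at 108, 110.5, 102 and 115 CPM in *Tra2b-cPEko* mice A to D. Every *Tra2b-cPEko* mouse was below every wild type mouse, although the lowest wild type mouse (C) and the highest *Tra2b-cPEko* mouse (D) were close together. Among all tested genes, 4.18% were lower in *Tra2b-cPEko* mice without overlap. The mean was 127 ± 10.4 CPM in wild type and 109 ± 5.55 CPM in *Tra2b-cPEko* mice (SD, n = 4 each), a difference of -13.9%. On the log2 scale the change was -0.22 ± 0.06 (standard error, edgeR, unadjusted p = 0.00316, adjusted p = 0.14), and a two-sided exact permutation test gave p = 0.0286, the smallest that 70 arrangements allow. DESeq2 gave an adjusted p of 0.0381. Over the 17 alternatives the log2 fold change lay between -0.26 and -0.15 and the adjusted p between 0.0381 and 0.408. Without wild type mice A and B the log2 fold change was -0.15 (edgeR, adjusted p = 0.408).

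Over all 8 mice the marker lists of germ cells at different stages did not behave alike. For the counts below, edgeR called 0.157% of all tested genes, and 15.3% had an unadjusted p under 0.05. DESeq2 called 2.79% of the genes it tested. How often sums of other genes do not overlap was not computed. The 8 markers of differentiating spermatogonia summed to 843 to 898 CPM in wild type and to 738 to 819 CPM in *Tra2b-cPEko* mice, without overlap, and 1 of the 8 was called (*Sohlh1*, a transcription factor of spermatogonial differentiation, log2 fold change -0.34, edgeR, adjusted p = 0.0341). With wild type mice A and B left out 0 of the 8 were called (edgeR, 4 at an unadjusted p under 0.05), and all 8 log2 fold changes were below 0 with and without those mice. The 10 markers of undifferentiated spermatogonia summed to 233 to 278 CPM and 248 to 258 CPM, with 5 log2 fold changes above and 5 below 0 and 0 called by edgeR (1 at an unadjusted p under 0.05, 0 by DESeq2). Without wild type mice A and B, 7 of these 10 lay below 0 (median -0.14, edgeR, 3 at an unadjusted p under 0.05). The wild type sums were then 275 to 278 CPM, without overlap with the *Tra2b-cPEko* mice, so the contrast with the differentiating list rested on those 2 mice. The 20 markers of leptotene and zygotene spermatocytes summed to 2654 to 3440 CPM against 2702 to 2824 CPM, 0 were called by edgeR (5 at an unadjusted p under 0.05, 1 by DESeq2) and 16 of 20 log2 fold changes lay below 0, or 7 of 20 without wild type mice A and B. The 4 tested of the 10 spermatid markers had a median log2 fold change of 0.31, at a summed level of at most 4.69 CPM. Without wild type mice A and B 5 were tested, with 2 above and 3 below 0 and a median of -0.20. Markers of other cell types went in both directions. Below 0 lay 9 of 12 Sertoli cell markers (median -0.04) and 5 of 5 tested red blood cell markers (median -0.54). Without wild type mice A and B all 5 red blood cell markers were above 0 (median 0.57). Above 0 lay 9 of 10 peritubular and stromal (median 0.09), 6 of 8 endothelial (median 0.03) and 5 of 7 tested striated muscle markers (median 0.05). None of these was called by edgeR. All 10 macrophage markers had a log2 fold change above 0 (median 0.29, 0 called by edgeR, 6 at an unadjusted p under 0.05, 2 by DESeq2), with sums of 148 to 185 CPM in wild type and 184 to 221 CPM in *Tra2b-cPEko* mice. Of 9 Leydig cell markers 6 lay above 0 (median 0.40, 0 called by edgeR, 3 at an unadjusted p under 0.05, 2 by DESeq2), with sums of 638 to 683 CPM and 657 to 876 CPM. Without wild type mice A and B, 5 Leydig cell markers lay above and 4 below 0 (median 0.05). All 10 macrophage markers stayed above 0 in that setting (median 0.28).

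The difference of *Slc25a31* depended on the germ cell list it was set against, in comparisons added after the data were seen. Relative to the summed CPM of a list, its mean log2 difference was -0.22 for undifferentiated spermatogonia (exact permutation p = 0.171), -0.06 for differentiating spermatogonia (exact permutation p = 0.457), -0.12 for leptotene and zygotene spermatocytes (exact permutation p = 0.0857) and -0.06 for pachytene spermatocytes (exact permutation p = 0.80). These 4 values became -0.03, 0.03, -0.18 and -0.37 without wild type mice A and B. The part of germ cell content in the lower *Slc25a31* level was not tested.

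The somatic carriers did not share the lower level. *Slc25a4* was at 147, 158, 153 and 144 CPM in wild type and 165, 148, 168 and 154 CPM in *Tra2b-cPEko* mice, with overlapping groups and a log2 fold change of 0.08 (95% interval -0.02 to 0.17, edgeR, adjusted p = 0.485). *Slc25a5* ranged from 195 to 216 CPM in wild type and from 192 to 224 CPM in *Tra2b-cPEko* mice (log2 fold change 0.03, 95% interval -0.08 to 0.13, edgeR, adjusted p = 0.856). The groups overlapped for both genes. The level of *Slc25a4* per kb relative to that of *Slc25a5* was 0.442 ± 0.00677 in wild type and 0.458 ± 0.0141 in *Tra2b-cPEko* mice (SD, n = 4 each, two-sided exact permutation test, p = 0.0857). Intervals here and below span 1.96 standard errors on each side, an approximation that is somewhat narrow for n = 4 each.

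*Ldhc*, on chromosome 7 from 46509777 to 46527794, was at 28.7, 25.1, 3.13 and 4.76 CPM in wild type mice A to D and at 6.37, 4.33, 9.86 and 6.35 CPM in *Tra2b-cPEko* mice A to D. Wild type mice A and B were above all 6 others, wild type mouse C was below all, and the groups overlapped. The wild type values spanned 9.15-fold, and the SD of their log2 CPM was larger than that of 99.9% of tested genes, against 94.8% for the *Tra2b-cPEko* mice. Between genotypes the fold change on the log2 scale was -1.18 (standard error 0.79, 95% interval -2.73 to 0.37, edgeR, adjusted p = 0.528). Without wild type mice A and B it turned to 0.77 (edgeR, adjusted p = 0.509), so the direction of the *Ldhc* difference rested on those 2 mice. It was -0.70 without wild type mouse A alone (edgeR, adjusted p = 0.787), and -0.55 with limma-voom (adjusted p = 0.738).

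*Ldha* ranged from 64.3 to 77.6 CPM in wild type and from 67.1 to 71.9 CPM in *Tra2b-cPEko* mice. *Ldhb* ranged from 585 to 662 CPM in wild type and from 586 to 651 CPM in *Tra2b-cPEko* mice. Both sets of ranges overlapped almost wholly, and the log2 fold changes were 0.00 for *Ldha* (95% interval -0.11 to 0.12) and 0.01 for *Ldhb* (95% interval -0.09 to 0.10). *Ldhb* was the main lactate dehydrogenase transcript in these testes, with a level per kb 9.49 ± 0.37 times that of *Ldha* in wild type and 9.51 ± 0.45 times in *Tra2b-cPEko* mice (SD, n = 4 each, two-sided exact permutation test, p = 0.971).

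*Pgk2*, on chromosome 17 from 40517906 to 40519531, was barely detected. It had 13, 15, 5 and 7 reads in wild type mice A to D and 12, 4, 6 and 6 reads in *Tra2b-cPEko* mice A to D, with overlapping groups. The highest value was 0.355 CPM in wild type mouse B (exact Poisson 95% interval 0.199 to 0.585 CPM) and the lowest 0.105 CPM in wild type mouse C (0.0342 to 0.245 CPM), intervals that cover counting error only. No difference between the genotypes was detected at this depth (p = 0.543 by an exact permutation test of log2 CPM, two-sided). *Pgk1* was at 68.5 to 75.4 CPM in wild type and 68.9 to 78.5 CPM in *Tra2b-cPEko* mice, with overlapping groups (log2 fold change -0.00, 95% interval -0.10 to 0.10, edgeR, adjusted p = 0.989). The value of *Pgk1* is uncertain as a level, since 95.7% of its canonical transcript has a copy elsewhere in GRCm39 that is at least 98% identical over 100 bases or more, and reads that fit both places may not have been counted.

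*Pdha2*, on chromosome 3 from 140882078 to 140918116, was at 21.4, 22.6, 12.0 and 13.7 CPM in wild type mice A to D and at 15.6, 11.1, 15.4 and 14.1 CPM in *Tra2b-cPEko* mice A to D. As for *Ldhc*, wild type mice A and B were above all others, and wild type mice C and D lay within the range of the *Tra2b-cPEko* mice. Between genotypes the fold change on the log2 scale was -0.30 (standard error 0.23, 95% interval -0.75 to 0.14, edgeR, adjusted p = 0.559), and without wild type mice A and B it turned to 0.13 (edgeR, adjusted p = 0.753). It was -0.19 without mouse A alone (edgeR, adjusted p = 0.796) and -0.16 without mouse B alone (edgeR, adjusted p = 0.812). The spread was smaller than for *Ldhc*, with an SD of log2 CPM larger than that of 94.1% of tested genes in wild type and of 76.9% in *Tra2b-cPEko* mice. *Pdha1* ranged from 53.3 to 57.6 CPM in wild type and from 52.9 to 63.0 CPM in *Tra2b-cPEko* mice, with overlapping groups (log2 fold change 0.03, 95% interval -0.08 to 0.15, edgeR, adjusted p = 0.833). Its SD of log2 CPM was larger than that of 10.9% of tested genes in wild type and of 54.2% in *Tra2b-cPEko* mice.

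**Figure D2:**
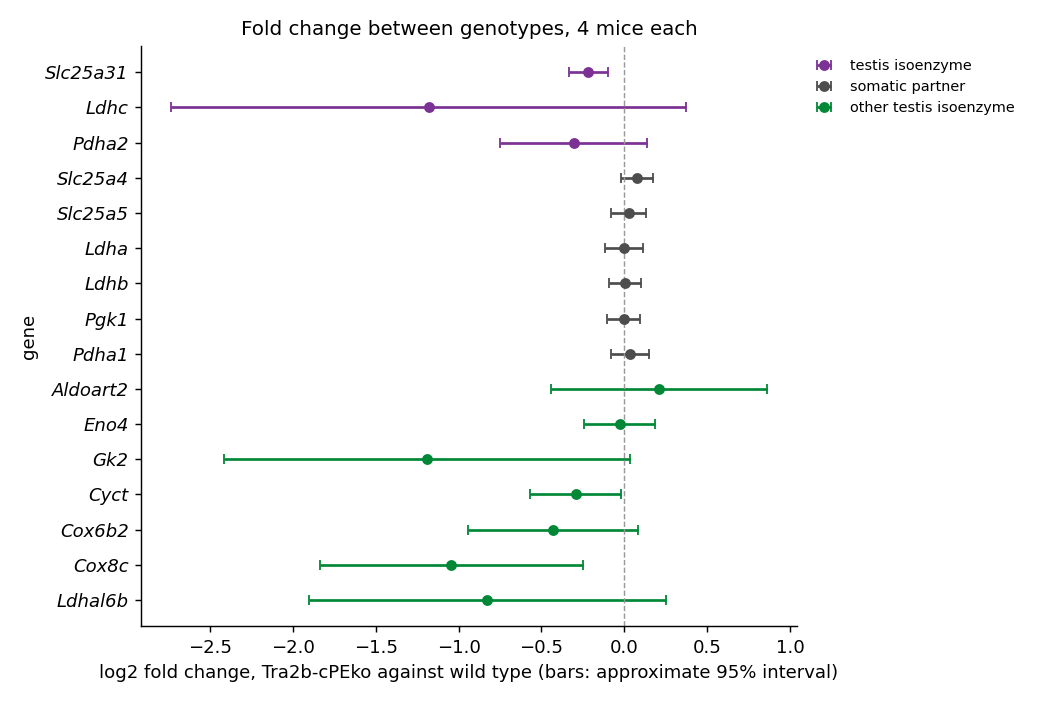
Log2 fold change of *Tra2b-cPEko* against wild type mice (horizontal axis) for the tested genes among the 10 and for 7 other testis isoenzymes, with bars of 1.96 standard errors. The bars are approximate and somewhat narrow, and that of *Cyct* leaves out 0 at an unadjusted p of 0.0589 (edgeR). The 6 somatic partners lie between -0.00 and 0.08, *Slc25a31* lies at -0.22, and the bars of *Ldhc* (-2.73 to 0.37) and *Pdha2* (-0.75 to 0.14) span 0.

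The testis to somatic ratio sets the RNA of each germ cell form beside that of its partner in the whole testis. Since it also depends on the mix of cells, replacement within a cell was not measured. The ratio was the level per kb of all exons of the testis gene over that of its partner, or over the sum of 2 partners, in each mouse. Ratios and shares would be lower with canonical transcript lengths, which raise the levels of the partners more. *Slc25a31* relative to *Slc25a4* plus *Slc25a5* was 0.414, 0.332, 0.321 and 0.370 in wild type mice A to D and 0.279, 0.327, 0.271 and 0.326 in *Tra2b-cPEko* mice A to D. The groups overlapped, since *Tra2b-cPEko* mice B and D lay just above wild type mouse C. The testis form made up 26.4 ± 2.24% of the 3 carriers in wild type and 23.1 ± 1.75% in *Tra2b-cPEko* mice (SD, n = 4 each). The mean log2 ratio differed by -0.25 (two-sided exact permutation test, p = 0.0857, 0.314 after Benjamini-Hochberg adjustment over the 11 ratios examined). With *Slc25a4* as the only partner the difference was -0.29 (exact permutation p = 0.0286, unadjusted), with *Slc25a5* it was -0.24 (exact permutation p = 0.114), and without wild type mice A and B it was -0.20.

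The ratio of *Ldhc* to *Ldha* plus *Ldhb* was 0.0791, 0.0638, 0.00864 and 0.0138 in wild type mice A to D and between 0.0116 and 0.0269 in *Tra2b-cPEko* mice. The testis form was 3.88 ± 3.26% of the 3 transcripts in wild type and 1.80 ± 0.61% in *Tra2b-cPEko* mice (SD, n = 4 each), and the log2 ratio differed by -0.66 (exact permutation p = 0.429). *Pdha2* made up a far larger part of its pair, 38.8 ± 7.77% in wild type and 33.8 ± 3.46% in *Tra2b-cPEko* mice (SD, n = 4 each), and its log2 ratio to *Pdha1* differed by -0.30 (exact permutation p = 0.286). Its share depends on the length used. Per kb of the canonical transcript the wild type means were 7.41 for *Pdha2* and 19.2 for *Pdha1*, against 6.70 and 10.3 per kb of all exons. *Pgk2* was 0.406 ± 0.223% of its pair in wild type and 0.304 ± 0.114% in *Tra2b-cPEko* mice (SD, n = 4 each, log2 difference -0.28, exact permutation p = 0.571). The groups overlapped in all 3 ratios. Without wild type mice A and B the log2 differences turned to 0.69 for *Ldhc*, 0.10 for *Pdha2* and 0.42 for *Pgk2*.

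**Figure D3:**
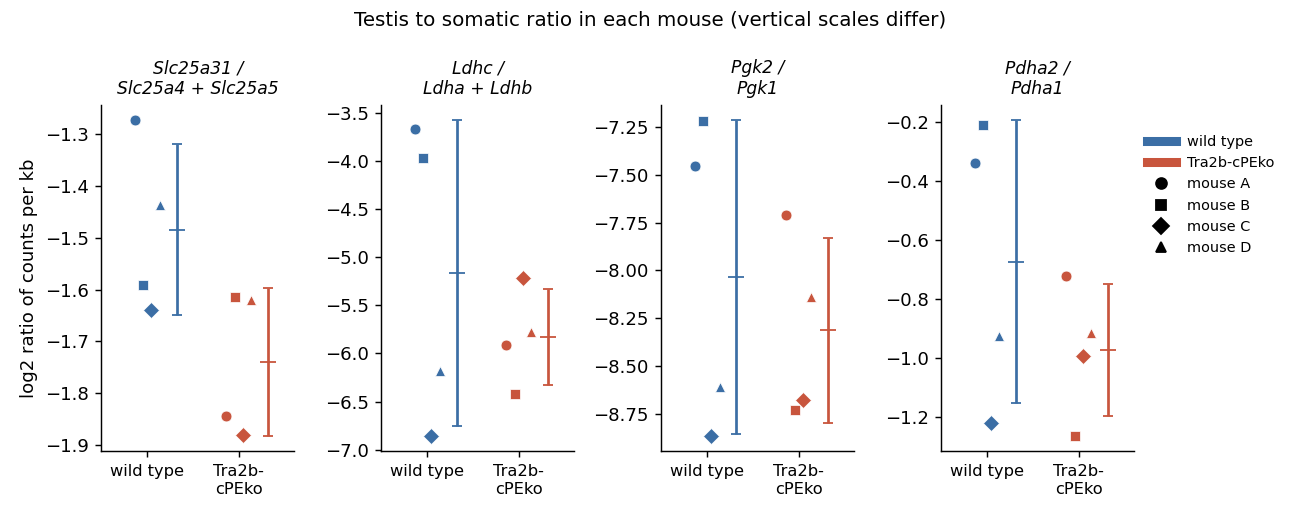
Log2 ratio of counts per kb of each testis isoenzyme to its somatic partner or partners, 1 point per mouse, with the genotype mean and SD (n = 4) beside the points; vertical scales differ between panels. Wild type mice A and B are the highest points for *Ldhc*, *Pgk2* and *Pdha2*, and for *Slc25a31* *Tra2b-cPEko* mice A and C are the lowest.

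*Ldhc* and *Pdha2* varied together across the mice and *Slc25a31* did not follow them closely. Over the 8 mice Pearson's r of log2 CPM was 0.96 for *Ldhc* with *Pdha2* (exact permutation p = 0.00107, 0.00412 after adjustment over 6 relations; Spearman's rho 0.93, exact permutation p = 0.00223). It was 0.53 for *Slc25a31* with *Ldhc* (exact permutation p = 0.182, adjusted 0.182; rho 0.19, exact permutation p = 0.665) and 0.54 with *Pdha2* (exact permutation p = 0.164, adjusted 0.182; rho 0.21, exact permutation p = 0.619). Without the 2 mice farthest from the median these 3 values were 0.80 (exact permutation p = 0.0486), 0.41 and 0.44. For the first relation the 2 mice left out were wild type A and B.

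The level of *Ldhc* and *Pdha2* also followed the pachytene marker list across the 8 mice. Of the 16 pachytene markers 14 were tested, and 0 were called by edgeR (1 by DESeq2). An unadjusted p under 0.05 was found for 2 of the 14, where 15.3% of all tested genes had one. The log2 fold change was below 0 for 12 of the 14, and the median was -0.31. In the other 6 mice, without wild type A and B, 7 of the 14 were below 0. Against the mean log2 CPM of the list, r was 0.96 for *Ldhc* (exact permutation p = 0.00206, adjusted 0.00412; rho 0.86, exact permutation p = 0.0107) and 0.94 for *Pdha2* (exact permutation p = 0.00198, adjusted 0.00412; rho 0.83, exact permutation p = 0.0154). Without wild type mice A and B these were 0.74 (exact permutation p = 0.104) and 0.66 (exact permutation p = 0.151), so neither relation held past the threshold in the other 6 mice. Among the *Tra2b-cPEko* mice, mouse C was the highest for the list and for *Ldhc*, and mouse B the lowest for the list, *Ldhc* and *Pdha2*. With genotype means subtracted, over all 8 mice, r was 0.99 for *Ldhc* and 0.94 for *Pdha2*. For *Slc25a31* r was 0.61 (exact permutation p = 0.117, adjusted 0.176; rho 0.43, exact permutation p = 0.299), and it turned to -0.36 without wild type mice A and B.

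**Figure D4:**
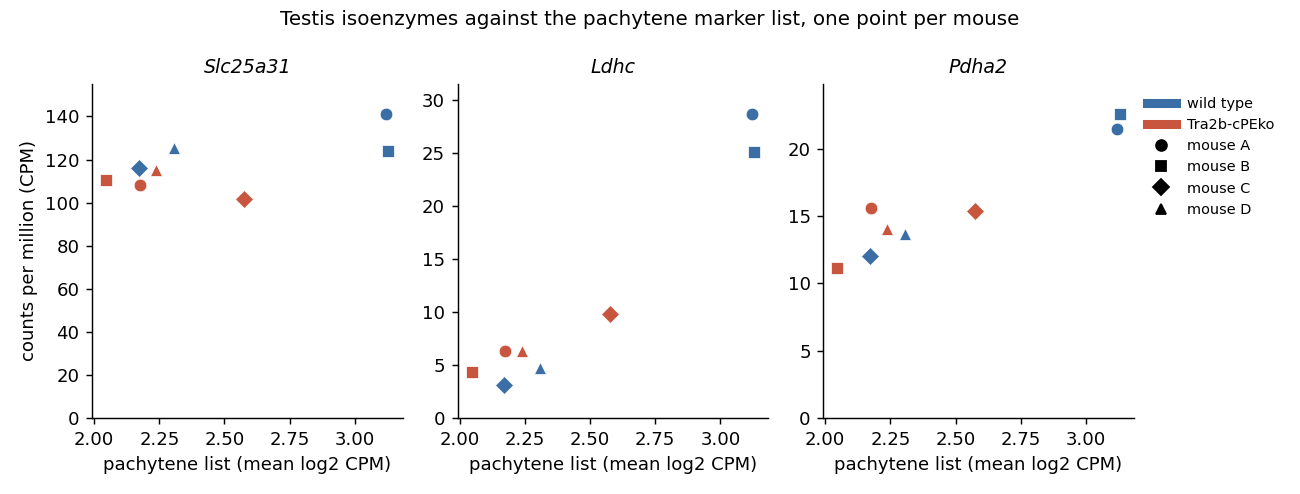
CPM of *Slc25a31*, *Ldhc* and *Pdha2* (vertical axes, from 0) against the mean log2 CPM of the pachytene marker list (horizontal axis), 1 point per mouse. Wild type mice A and B lie at 3.12 and 3.13 on the horizontal axis, apart from the other 6 mice at 2.05 to 2.58, and are the highest for *Ldhc* and *Pdha2*.

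The genes whose log2 CPM was most like that of *Ldhc* over the 8 mice were *Rnls*, *Cntd1*, *Ldhal6b*, *Clgn* and *1700029M20Rik*, each with a Pearson's r of 0.99. *Ldhal6b* is itself a lactate dehydrogenase gene, at 8.44, 7.95, 1.89 and 2.54 CPM in wild type mice A to D and between 1.99 and 4.00 CPM in *Tra2b-cPEko* mice, so wild type mice A and B were high here too. *Clgn*, which encodes a chaperone of the germ cell endoplasmic reticulum and is one of the pachytene markers, ran from 25.1 to 65.7 CPM. For *Pdha2* the 5 most alike were *Gm1096*, *Iqcd*, *Wfdc15a*, *Susd5* and *Tdrd5*, with r from 0.98 to 0.99. For *Slc25a31* they were *Pdcd10*, *Fbxw2*, *Gm4841*, *Gid8* and *Lsm3*, with r from 0.964 to 0.995. None of these 15 genes was called by edgeR (adjusted p from 0.16 to 0.67). The highest of 19104 correlations over 8 mice are high by selection, so these are a description.

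Most of the other testis isoenzymes were also highest in wild type mice A and B. Of 10 such genes 7 were tested, and in 6 of the 7 these were the 2 highest mice, as they were in 12.7% of all tested genes. By edgeR 0 were called (1 of the 10 by DESeq2). An unadjusted p under 0.05 was found for 1 of the 7, where 15.3% of all tested genes had one. The log2 fold change was below 0 for 6 of the 7 and the median was -0.43, while the 7 tested somatic partners had a median of 0.00. Leaving out wild type mice A and B, 3 of the 7 isoenzymes were below 0 and the median was 0.12. *Cox8c*, a testis subunit of cytochrome c oxidase, was at 12.4, 13.3, 4.25 and 5.05 CPM in wild type mice A to D and between 3.76 and 4.66 CPM in *Tra2b-cPEko* mice (log2 fold change -1.04, standard error 0.41, edgeR, adjusted p = 0.296). Its level was highest in wild type mice A and B, and the groups overlapped. Relative to *Cox8a*, however, its ratio ran from 0.0906 to 0.273 in wild type and from 0.0740 to 0.0844 in *Tra2b-cPEko* mice, without overlap (log2 difference -0.98, exact permutation p = 0.0286, adjusted over the 11 ratios 0.157). The difference was -0.22, still without overlap, when wild type mice A and B were left out. The log2 ratio differed by -0.28 for *Cyct*, the testis cytochrome c, against *Cycs* (exact permutation p = 0.171), by -0.35 for *Cox6b2* against *Cox6b1* (exact permutation p = 0.257), by -1.29 for *Gk2* against *Gk* (exact permutation p = 0.114) and by 0.03 for *Eno4* against *Eno1* (exact permutation p = 0.83), and the groups overlapped in each. In the same 6 mice these differences were -0.03 for *Cyct*, 0.06 for *Cox6b2*, -0.35 for *Gk2* and 0.12 for *Eno4*. *Gapdhs*, the glyceraldehyde phosphate dehydrogenase of sperm, had at most 3 reads in any library and *Aldoart1* at most 1, so their ratios were not read. Both still count among the 11 ratios of the adjustment, where *Gapdhs* tied with *Cox8c* for the smallest p (exact permutation p = 0.0286). The adjusted p of the ratios thus leans in part on a ratio that was not read.

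No gene of the wider pathways was called by edgeR. Among all tested genes 0.157% were called, and 15.3% had an unadjusted p under 0.05. DESeq2 called 2.79% of the genes it tested. In glycolysis 0 of 13 tested genes were called (1 at an unadjusted p under 0.05, 0 by DESeq2), with a median log2 fold change of 0.02 and the smallest p for *Hk2*, a hexokinase (0.17, edgeR, adjusted p = 0.243), and *Pgam1*, a phosphoglycerate mutase (0.13, edgeR, adjusted p = 0.357). In the citric acid cycle 0 of 14 were called (0 at an unadjusted p under 0.05, 0 by DESeq2, median -0.01), and the smallest p belonged to *Cs*, citrate synthase (-0.09, edgeR, adjusted p = 0.405), and *Ogdh*, a subunit of oxoglutarate dehydrogenase (0.07, edgeR, adjusted p = 0.433). Among genes of nucleotide and phosphate exchange across mitochondrial membranes 0 of 11 were called (4 at an unadjusted p under 0.05, 0 by DESeq2, median -0.05), with *Vdac3*, an outer membrane channel, at -0.14 (edgeR, adjusted p = 0.214) and *Slc25a23*, an ATP-Mg/phosphate carrier, at 0.12 (edgeR, adjusted p = 0.24). These 11 genes summed to 1189 to 1234 CPM in wild type and to 1130.3 to 1185 CPM in *Tra2b-cPEko* mice, without overlap. How often sums of other genes do so was not computed. Among lactate, pyruvate and glucose transporters 0 of 7 tested genes were called (2 at an unadjusted p under 0.05, 0 by DESeq2, median -0.00), with *Emb*, embigin, at 0.40 (edgeR, adjusted p = 0.254) and the lactate transporter *Slc16a1* at 0.13 (edgeR, adjusted p = 0.312).

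*Dlat* and *Pdhx*, subunits of the complex that holds *Pdha1* and *Pdha2*, had the lowest adjusted p of the pathway genes. Of 13 genes for the other subunits of pyruvate dehydrogenase, its kinases, phosphatases and their regulator, and the mitochondrial pyruvate carrier (*Mpc1* and *Mpc2*), 0 were called by edgeR (5 at an unadjusted p under 0.05, 2 by DESeq2), with a median of -0.04. The subunits *Pdhb* (-0.13, edgeR, adjusted p = 0.254) and *Dld* (-0.08, edgeR, adjusted p = 0.445) lay farther from the threshold. *Dlat*, the E2 subunit, was at 60.3, 55.1, 51.7 and 51.9 CPM in wild type mice A to D and at 45.0, 47.7, 47.4 and 44.6 CPM in *Tra2b-cPEko* mice A to D, without overlap (log2 fold change -0.25, standard error 0.06, edgeR, adjusted p = 0.101, DESeq2 adjusted p = 0.00943). *Pdhx*, the subunit that binds E3, ranged from 47.9 to 50.9 CPM in wild type and from 43.5 to 46.1 CPM in *Tra2b-cPEko* mice, without overlap (log2 fold change -0.16, standard error 0.05, edgeR, adjusted p = 0.152, DESeq2 adjusted p = 0.0368). Both, named for the smallest p of the 13, were thus lower without overlap, as *Slc25a31* and 4.18% of all tested genes were, and *Pdha1* was not. DESeq2 called 2.79% of the genes it tested, and 15.3% of those tested by edgeR had an unadjusted p under 0.05. A gene outside the naming rule, picked after its values were seen, was *Gykl1*, a testis relative of glycerol kinase that failed the edgeR filter and that DESeq2 called (adjusted p = 0.0412). It had 46, 38, 8 and 12 reads in wild type mice A to D and 3, 0, 11 and 2 reads in *Tra2b-cPEko* mice A to D, with overlapping groups and the highest counts in wild type mice A and B.

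The testis isoenzymes and their partners are distinct enough in sequence for reads to be assigned between them. The coding sequence of *Slc25a31* was 61.2% identical to those of *Slc25a4* and *Slc25a5*, that of *Ldhc* was 73.2% identical to *Ldha* and 64.0% to *Ldhb*, that of *Pgk2* was 79.3% identical to *Pgk1*, and that of *Pdha2* was 75.4% identical to *Pdha1*. The longest identical run between any testis gene and its partner was 22 bases. Elsewhere in the genome the 4 testis transcripts had 0 copies at 90% identity or more over 100 bases, while *Ldha* had 13 such loci, *Slc25a5* 8 and *Pgk1* 4. On the other strand *Gm39011* overlaps *Ldha* and *Ldhc*, *Gm73513* overlaps *Ldha*, *Gm66015* overlaps *Pdha2*, *Map3k15* overlaps *Pdha1* and *Steep1* overlaps *Slc25a5*. Whether strand was used in counting is not given in the sources used here, so for those 5 genes the reads of both strands cannot be told apart. Among the other pairs the same holds for *Aldoa*, *Cox8a*, *Eno4*, *Gapdh*, *Gapdhs*, *Gk* and *Gk2*.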

How the data were processed

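RNA was measured in whole testes of 8 mice aged 12 days. Per the submitters' processing notes the tools were HISAT2 2.2.1, SAMtools 1.7.1, HTSeq 2.0.2 and deepTools 3.5.1 on mm39. The authors deposited raw read counts per gene symbol for each mouse, with 5 summary lines that were left out here (31.0% to 33.6% of all reads, of which reads without a unique place made up 14.6% to 15.6% of all).

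Counts were filtered (filterByExpr, minimum count 10, minimum total 15), scaled by TMM and tested with edgeR 4.0.16 (quasi-likelihood, robust) with genotype as the only term. CPM are counts per 1000000 of the TMM-scaled library. The threshold was an adjusted p of 0.05. DESeq2 1.42.0 and limma-voom (limma 3.58.1) were alternatives. Ratios were formed from counts plus 0.5 per kb of exon and tested by exact permutation over 70 arrangements of the mice. Gene positions, lengths and overlaps came from GENCODE vM39. The paper names the NCBI annotation of GRCm39 for its processing, so they may differ from the gene models that were counted. The mice were separate animals.

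The members, the other testis isoenzymes and all gene lists were chosen with earlier results of these data known. Genes named were the members, the genes of the 11 pairs, the 2 genes with the smallest p in each pathway list where none was called, *Tra2b* and *Tra2a*, and the 5 genes most alike to each isoenzyme. In whole tissue counts, the depth gave between 4055 and 7388 reads for *Slc25a31* per library, 149 to 1268 for *Ldhc*, 409 to 954 for *Pdha2* and 4 to 15 for *Pgk2*.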

Additional observations from a re-analysis of the deposited data

How the results depend on the processing

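The count of all genes called, 30 in the test reported, was 507 with DESeq2, 58 with upper-quartile factors, 123 with no filter on low counts, 14 with a mean count of at least 50, 11 with limma-voom, 12 without robust estimation, between 3 and 84 when single mice were left out, and 1 without wild type mice A and B. Of the members 1 was called with DESeq2 (*Slc25a31*) and 0 under the other alternatives; of the genes in the pathway and isoenzyme lists 3 were called with DESeq2 (*Dlat*, *Pdhx* and *Gykl1*) and 1 (*Dlat*) without the filter. The cause of these shifts was not tested. Mice of equal replicate letter were no more alike than others (correlations of deviations between -0.14 and 0.12, against -0.10 to 0.15 for unequal letters). Whether equal letters mark a shared litter or batch was not tested. With the replicate block 67 genes and no member were called, the adjusted p of *Slc25a31* was 0.111, and the paired ratio difference of *Slc25a31* remained -0.25 (smallest p that 16 sign flips allow, 0.125).

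*Slc25a31* was below 0 in all 17 alternatives, between -0.26 and -0.16 when single mice were left out, with an edgeR adjusted p between 0.0558 and 0.342. The fold change of *Ldhc* lay between -1.52 and -0.70 when single mice were left out, and was -0.75 with the replicate block and -0.55 with limma-voom. The difference between genotypes in the log2 ratio of *Slc25a31* to the somatic carriers was -0.29 with *Slc25a4* alone. It lay between -0.31 and -0.18 when single mice were left out. The unadjusted exact permutation p was 0.0286 without wild type mouse C, the smallest that 35 arrangements allow. It lay between 0.0857 and 0.20 (exact permutation test) when any other single mouse was left out. Without wild type mice A and B, a setting chosen after the data were seen, the log2 fold changes of *Ldhc* (0.77) and *Pdha2* (0.13) reversed. The differences in log2 ratio of *Ldhc* (0.69), *Pgk2* (0.42) and *Pdha2* (0.10) reversed too. Without the 2 farthest mice the relations to the pachytene list weakened to r of 0.74 (*Ldhc*) and 0.66 (*Pdha2*). Too few reads kept 1 of the 10 genes, *Pgk2*, out of the test.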
